A study of Mus musculus with 16 samples.

Results

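Leukaemia cells taken from the spleen were compared with leukaemia cells taken from the bone marrow in mice that drank control water, so that the fusion oncogene had not been knocked down. The members are the 3 spleen control and 3 bone marrow control libraries, 6 of the 16 RNA sequencing libraries of the series, and they were chosen by the tissue and the treatment in their labels. All 6 hold primary mouse cells expressing CBFB::MYH11 (abbreviated CM in the labels) and GFP, grown in congenic recipient mice. The mice had been given 5% sucrose in their drinking water for 7 days after engraftment, and GFP-positive cells were sorted. The control labels mention CM-expressing cells and no shRNA, whereas the design text has cells with a doxycycline-inducible shRNA against MYH11 in both arms, so the controls may carry the uninduced construct. The other libraries, used here only for reference, are 3 of bone marrow doxycycline and 3 of spleen doxycycline (3 mg/ml doxycycline in 5% sucrose, 7 days, cells transduced with the shRNA). A further 4 are of secondary disease, taken from the spleens of doxycycline-treated mice with the same construct. The labels do not say whether a spleen and a marrow library came from the same mouse, whether each replicate was a separate mouse, or from how many primary leukaemias the cells came. A difference between the tissues and a difference between the mice or cell populations sampled therefore cannot be told apart. The p-values measure only how far these libraries spread, which may be technical.

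CBFB::MYH11 is the product of the chromosome 16 inversion of acute myeloid leukaemia. It joins the RUNX-binding partner CBFβ to the tail of smooth muscle myosin and interferes with RUNX1, a master factor of blood formation. Leukaemia cells of this kind fill the bone marrow, where stromal cells, vessels and bone hold blood stem cells and their descendants, and also the spleen, whose red pulp filters blood and can take over blood formation in mice.

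The labelled cell type was checked first. Genes of the stem, progenitor and mast cell lineages were expressed in both tissues. Gata2, a transcription factor of stem and mast cells, measured 272, 243 and 303 CPM in marrow and 274, 269.6 and 273 in spleen (CPM, the count relative to library size after TMM scaling). Il1rl1, the receptor gene for interleukin-33, measured 1687, 1725 and 1869 CPM in marrow and 2163, 2140.3 and 2083 in spleen. Ms4a2, the β chain of the IgE receptor, stood at 588, 647 and 507 CPM in marrow and 615, 599 and 559 in spleen. Cbfb, which holds the reads of the normal allele and the first part of the fusion, was at 130.1, 143 and 123 CPM in marrow and 149, 128 and 135 in spleen. The groups overlapped in Gata2, Ms4a2 and Cbfb, and none of these 4 genes passed the test (adjusted p = 0.999, 0.115, 0.908 and 0.752 in the order given, with edgeR's quasi-likelihood test). Cd34, a gene of early blood cells, was scarce, with at most 22 expected counts in a library. So was Myh11, the gene of the other fusion partner, with at most 9, and neither was tested. Of other early myeloid genes, given below, Kit and Mpo were lower in spleen and Spi1 did not pass. Ptprc, the pan-leukocyte gene of CD45, measured 10.8, 15.4 and 17.9 CPM in marrow and 4.96, 2.21 and 4.10 in spleen, lower in every spleen library (log2 change −1.96 ± 0.28, adjusted p = 0.00122). Here and below a value after ± is the standard error of a log2 fold change (spleen minus bone marrow), from 3 libraries against 3, and adjusted p-values are from edgeR with Benjamini-Hochberg adjustment over all genes tested. The 6 libraries held 21838936 to 39419370 expected counts, and the first principal component, with 60.2% of the variance, separated the tissues, while the second (14.8%) spread the marrow libraries.

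Of 55487 genes in the table, 13125 were expressed highly enough to be tested, and 1927 of these (14.7%) differed between the tissues at an adjusted p under 0.05. The calls were divided almost evenly, with 958 genes higher (7.30%) and 969 lower (7.38%) in spleen, and the median log2 fold change of all genes tested was −0.00. Counts of called members in each list below are to be read against these shares. The lower genes moved further: 263 were at least 4-fold lower and 85 at least 4-fold higher, and at 2-fold the numbers were 486 and 303. The genes lower in spleen were also less abundant, with a median of 3.40 on the average log2 CPM scale against 4.69 for the higher ones. In 1925 of the 1927 called genes the values of the groups did not overlap, against 33.9% of all genes tested. A call with 3 libraries a group favours such genes, so separation is no further support for a call, here and below. Leaving out a spleen library lowered the number of calls to 1208 (replicate 1), 1113 (replicate 2) or 1022 (replicate 3). No called gene changed direction in any fit that left out 1 library. With no overlap between the groups in 1925 of them such a change was hardly possible, so this is no further support either. When the doxycycline libraries entered the model 94 genes were called, and 1997 when the spleen doxycycline libraries alone were kept out of it. The spleen doxycycline replicates differed from each other by a chi-square of 217.3 to 469.1 per degree of freedom, against 7.47 to 47.7 among the control replicates.

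**Figure D1:**
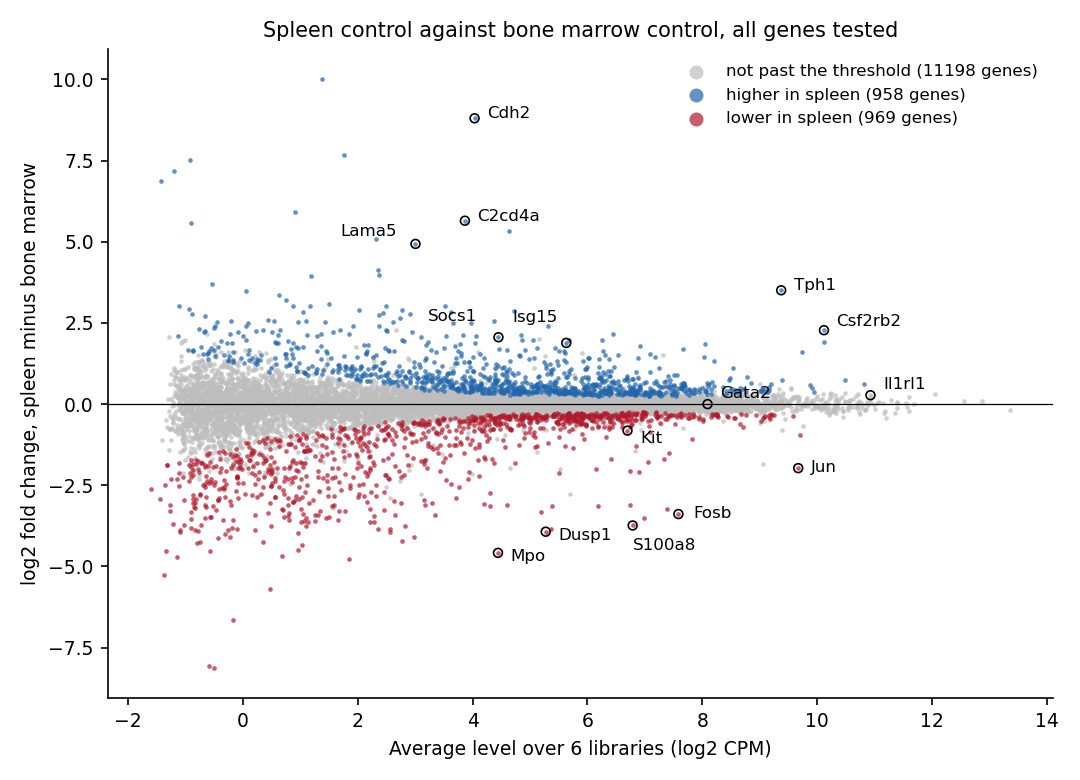
Each point is one of the 13125 genes tested, placed by its average level over the 6 control libraries (log2 CPM) and by its log2 fold change, spleen minus bone marrow. Blue genes were called higher in spleen (958), red genes lower (969), and circles mark named genes: Cdh2, C2cd4a and Lama5 lie far above the line, Mpo, Dusp1, S100a8 and Fosb far below it, and Gata2 on it.

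The gene with the smallest p was Cdh2 (ENSMUSG00000024304), which encodes N-cadherin, a cell-to-cell adhesion molecule. It was all but silent in marrow, with 0, 1 and 4 counts in replicates 1, 2 and 3, and it measured 32.7, 34.0 and 30.6 CPM in the spleen libraries (log2 change 8.80 ± 0.30, adjusted p = 1.52e-07). Lama5 (ENSMUSG00000015647, chromosome 2, 180176373 to 180225859, minus strand; GRCm38), the α5 chain of laminins, measured 1.21, 0 and 0.308 CPM in marrow and 13.5, 15.1 and 16.995 in spleen (log2 change 4.93 ± 0.73, adjusted p = 0.00871). The ephrin receptor gene Epha2 measured 4.15, 1.70 and 1.54 CPM in marrow and 18.1, 21.3 and 20.996 in spleen (log2 change 3.03 ± 0.32, adjusted p = 0.000471). Ecm1, a matrix protein gene, was at 19.7, 7.19 and 11.2 CPM in marrow and 62.7, 69.3 and 67.4 in spleen (log2 change 2.39 ± 0.35, adjusted p = 0.00791). All spleen libraries lay above all marrow libraries in these 4 genes, as the rule that named them required. The marrow libraries were the more spread relative to their level, with replicate 1 the highest in Lama5, Epha2 and Ecm1. The call of Lama5 was lost without spleen replicate 2 or 3 (adjusted p up to 0.0668).

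Tph1 (ENSMUSG00000040046, chromosome 7, 46644641 to 46672537, minus strand), the rate-limiting enzyme of serotonin synthesis outside the brain and a product of mast cells, was among the most abundant of the genes that rose. Its marrow values were 213, 54.2 and 54.5 CPM and its spleen values 1235, 1234 and 1182 CPM (log2 change 3.51 ± 0.70, adjusted p = 0.0402). Marrow replicate 1 stood apart from the others, and the call was kept in 1 of the 6 fits that left out a library (adjusted p up to 0.133 in the others). Kalrn, an exchange factor for small GTPases, was at 9.17, 2.91 and 7.04 CPM in marrow and 47.1, 47.6 and 43.5 in spleen (log2 change 2.86 ± 0.36, adjusted p = 0.0039). Rgs10, a brake on G-protein signalling, was at 5.86, 6.16 and 5.94 CPM in marrow and 30.9, 37.9 and 37.0 in spleen (log2 change 2.56 ± 0.12, adjusted p = 5.55e-07). Ebi3, a subunit shared by the cytokines interleukin-27 and interleukin-35, measured 4.06, 2.06 and 2.95 CPM in marrow and 22.2, 20.9 and 21.4 in spleen (log2 change 2.83 ± 0.20, adjusted p = 1.08e-05). C2cd4a, a nuclear calcium-dependent gene first described in inflamed endothelium, was at 1.68, 0 and 0.0440 CPM in marrow and 29.8, 26.5 and 28.5 in spleen (log2 change 5.65 ± 0.89, adjusted p = 0.0185). It had 40, 0 and 1 counts in the marrow libraries and lost its call without any one of the spleen libraries (adjusted p up to 0.105). Cobll1 (2.50 ± 0.30), Tmem158 (2.13 ± 0.10), the membrane-remodelling gene Ehd2 (2.14 ± 0.13) and the mast cell and neutrophil GTPase gene Rab44 (2.15 ± 0.40 in log2 units) were higher in spleen as well. Rab44 lost its call without marrow replicate 3 or any spleen library (adjusted p up to 0.102). The signalling adaptor gene Sla was at 108, 120.4 and 113 CPM in marrow and 27.2, 28.4 and 29.5 in spleen (log2 change −1.999 ± 0.09, adjusted p = 5.55e-07). Stard8, a GTPase-activating protein gene, was at 20.4, 13.5 and 14.4 CPM in marrow and 1.59, 1.5042 and 2.33 in spleen (log2 change −3.12 ± 0.23, adjusted p = 1.18e-05). The thrombin receptor gene F2r had one of the tightest differences, at 21.7, 20.5 and 20.0 CPM in marrow and 84.1, 79.1 and 80.2 in spleen (log2 change 1.97 ± 0.09, adjusted p = 5.55e-07).

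**Figure D2:**
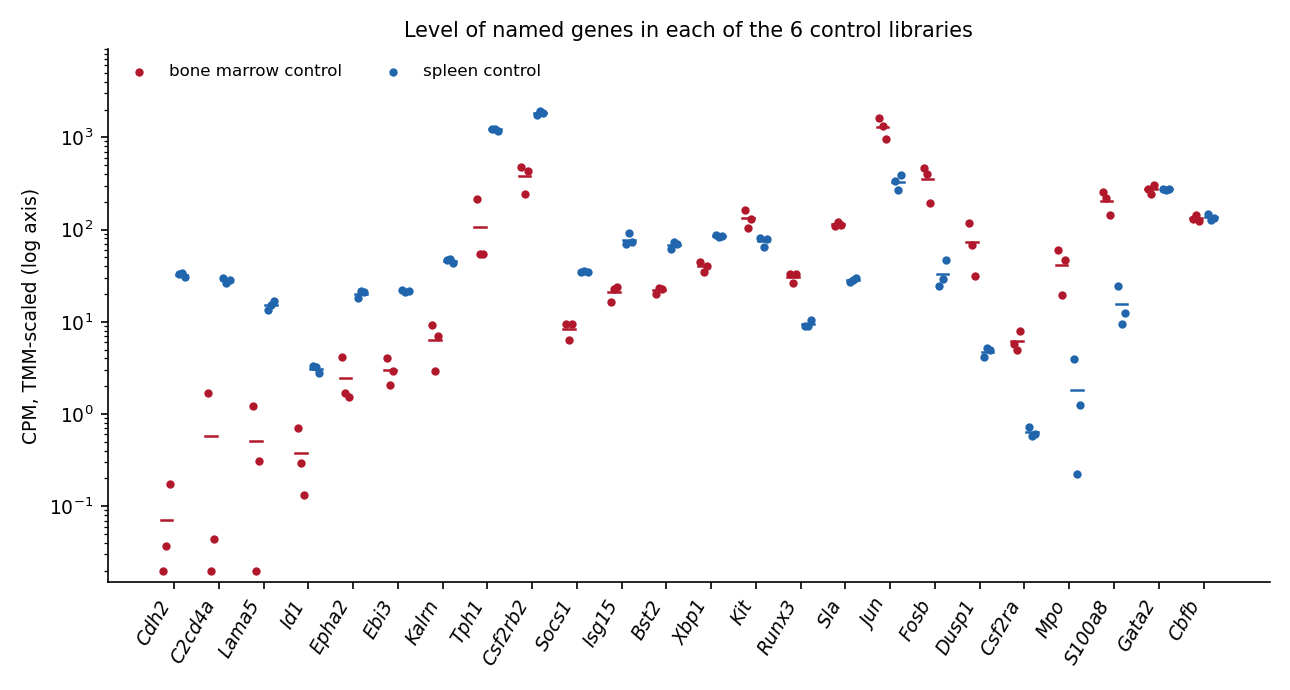
The TMM-scaled level (CPM, log axis) of 24 named genes is drawn for each of the 3 bone marrow control (red) and 3 spleen control (blue) libraries. A line marks the mean of each group, and values under 0.02 CPM are drawn at 0.02. The groups are apart in every gene from Cdh2 to S100a8 and overlap in Gata2 and Cbfb at the right.

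Interferons induce a program of antiviral and antigen-presenting genes through transcription factors that bind a sequence known as the interferon-stimulated response element. Of 49 interferon response genes tested, 28 were higher in spleen, 2 lower and 19 did not pass, against 7.30% and 7.38% of all genes, with a median log2 fold change of 0.81 over the list. The summed level of the list ran from 1303 to 1644 CPM in marrow and from 2589 to 2661 CPM in spleen. Isg15 (ENSMUSG00000035692, chromosome 4, 156199424 to 156200818, minus strand), a ubiquitin-like modifier, measured 16.3, 22.8 and 24.1 CPM in marrow and 68.9, 91.5 and 72.9 in spleen (log2 change 1.88 ± 0.16, adjusted p = 3.29e-05). Usp18, which removes ISG15 and dampens the interferon receptor, was at 10.2, 13.3 and 11.8 CPM in marrow and 43.2, 46.3 and 48.5 in spleen (log2 change 1.96 ± 0.11, adjusted p = 3.42e-06). Bst2, the tetherin gene, went from 19.8, 23.3 and 22.9 to 61.5, 73.9 and 69.1 CPM (log2 change 1.63 ± 0.10, adjusted p = 6.69e-06), and all spleen values were above all marrow values. Ddx58, an RNA sensor gene, went from 38.5, 46.7 and 51.7 to 125, 119 and 115 CPM (log2 change 1.39 ± 0.11, adjusted p = 1.58e-05). Irf7, the factor that amplifies interferon production, measured 31.6, 35.4 and 45.5 CPM in marrow and 107, 119 and 125 in spleen (log2 change 1.64 ± 0.13, adjusted p = 1.71e-05), and its annotated exons overlap those of Phrf1 on the other strand by 45 bases. All spleen libraries lay above all marrow libraries in these 5 genes. Irf9, a factor that carries the interferon signal, rose by 0.61 ± 0.08 in log2 units. Mx2, a GTPase of the myxovirus resistance family, measured 0.628, 1.29 and 1.14 CPM in marrow and 5.55, 4.82 and 3.98 in spleen (log2 change 2.21 ± 0.29, adjusted p = 0.000589). Fits that left out 1 library called 24 to 33 members higher, and without marrow replicate 1 there were 4 called lower.

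Phf11d, listed as an interferon-inducible gene, went the other way together with Cmpk2, and it had 9.97, 12.1 and 12.3 CPM in marrow and 2.41, 2.43 and 2.68 in spleen (log2 change −2.18 ± 0.17, adjusted p = 1.49e-05). Of 14 interferon-inducible GTPases, which guard against intracellular pathogens, 7 were higher and 0 lower in spleen (median 0.66). They include Irgm1 at 54.6, 64.1 and 73.2 CPM in marrow and 174, 174 and 166 in spleen (log2 change 1.42 ± 0.11, adjusted p = 1.25e-05), Irgm2 (1.15 ± 0.13), Ifi47 (0.93 ± 0.11) and Igtp (0.79 ± 0.11 in log2 units). Without marrow replicate 1, 2 members were called lower. Members of this family share sequence, so the split of reads between them is uncertain. Of 20 genes of MHC class I presentation, 3 rose and 17 did not pass, so 15% were called, near the 14.7% of all genes tested. The class I heavy chains H2-K1 (0.52 ± 0.09) and H2-D1 (0.43 ± 0.10) and the peptide loader Tapbp (0.56 ± 0.10 in log2 units) were higher. For B2m, the light chain, the log2 value was 0.36 (adjusted p = 0.0694). The call of H2-D1 was lost without spleen replicate 2 or 3 (adjusted p up to 0.0741). The number of members called higher was 6 without marrow replicate 2, 2 without spleen replicate 2 or 3, and 3 were called lower without marrow replicate 1. Of 9 class II genes 1 (H2-DMb1) was lower, or 5 without marrow replicate 1 (median −2.02). Among the interferon receptor chains, Ifnar1 and Ifngr2 did not pass. Ifnar2, a chain of the type I interferon receptor, had 52.951, 49.9 and 56.6 CPM in marrow and 38.5, 42.6 and 41.2 in spleen (log2 change −0.38 ± 0.09, adjusted p = 0.0143). Ifngr1, of the type II receptor, had 2.26, 2.73 and 4.22 CPM in marrow and 1.00, 0.177 and 0.962 in spleen (log2 change −2.06 ± 0.47, adjusted p = 0.0144). The call of Ifnar2 was lost without spleen replicate 1 or 3 (adjusted p up to 0.0812).

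Of 19 genes of interferon and STAT receptors and feedback 3 were higher, 4 lower (Jak2 and Stat5b beside the pair of receptor chains above) and 12 did not pass (median −0.16). Fits without 1 library called 2 to 4 higher and 1 to 6 lower. The members that rose were feedback and target genes. Socs1 (ENSMUSG00000038037, chromosome 16, 10782240 to 10785536, minus strand), an inhibitor of JAK kinases, measured 9.34, 6.42 and 9.54 CPM in marrow and 34.3, 35.8 and 34.9 in spleen (log2 change 2.06 ± 0.14, adjusted p = 9.01e-06). Cish, which is induced by STAT5, measured 99.0, 74.1 and 101 CPM in marrow and 169, 185 and 188 in spleen (log2 change 0.98 ± 0.12, adjusted p = 0.000272). The kinase gene Pim1 was at 72.1, 42.3 and 65.3 CPM in marrow and 96.7, 102 and 103 in spleen (log2 change 0.75 ± 0.17, adjusted p = 0.016). Pim1 lost its call without marrow replicate 3 or spleen replicate 2 or 3 (adjusted p up to 0.06). In all 3 genes every spleen library was above every marrow library.

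Promoters were read from RefSeq (GRCm38.p6), as the 250 bases before the start of transcription, 5′ to 3′ on the gene's strand. Among the genes tested 9403 had such a sequence. The response element, searched on both strands as a pair of GAAA units with any 2 bases between them, occurred in 22 of 45 members of both interferon lists (48.9%), against 3.23% of all 9403 promoters. It occurred in 11 of the 27 members called higher (40.7%), a lower share than in all 45 members. In the promoters of all genes called higher and lower the shares were 3.97% and 4.19%. The lists hold genes known to respond to interferon, so a high share in them follows from membership and is no result of these libraries. The 3 promoters below belong to genes that rose and hold overlapping copies of the element, in capitals, though Socs1 is a member of neither list.
Isg15, chr4:156200819-156201068, minus strand: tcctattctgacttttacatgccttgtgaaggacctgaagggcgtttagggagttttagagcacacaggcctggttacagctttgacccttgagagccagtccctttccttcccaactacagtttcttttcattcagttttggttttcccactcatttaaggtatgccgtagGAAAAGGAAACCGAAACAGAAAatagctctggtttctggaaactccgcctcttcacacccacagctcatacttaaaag
Bst2, chr8:71537473-71537722, minus strand: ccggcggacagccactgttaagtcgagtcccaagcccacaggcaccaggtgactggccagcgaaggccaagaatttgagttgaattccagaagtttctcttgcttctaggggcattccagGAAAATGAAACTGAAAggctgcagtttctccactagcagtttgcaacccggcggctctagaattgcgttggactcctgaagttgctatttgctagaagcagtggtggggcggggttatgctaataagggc
Socs1, chr16:10785537-10785786, minus strand: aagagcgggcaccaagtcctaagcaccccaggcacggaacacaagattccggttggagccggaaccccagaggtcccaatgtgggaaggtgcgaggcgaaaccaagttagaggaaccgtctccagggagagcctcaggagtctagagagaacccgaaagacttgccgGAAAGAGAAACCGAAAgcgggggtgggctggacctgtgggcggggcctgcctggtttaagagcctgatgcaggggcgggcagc

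Isg15 holds 3 overlapping matches and Bst2 and Socs1 hold 2 each, and the match nearest to the start begins 66, 124 and 77 bases before it. A match is a description of the letters and was not tested for binding.

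NF-κB is the other factor family that inflammatory signals switch on, and 7 of its 17 tested subunit, feedback and target genes were higher, 1 lower and 9 did not pass (median 0.35). The subunit genes Nfkb1 (265, 208 and 246 CPM in marrow and 357, 343 and 352 in spleen; log2 change 0.55 ± 0.10, adjusted p = 0.00341), Nfkb2 (0.69 ± 0.11) and Relb (0.69 ± 0.10) rose by less than 2-fold. The cytokine gene Il6, a target, measured 1.97, 1.29 and 2.95 CPM in marrow and 5.50, 5.66 and 5.70 in spleen (log2 change 1.45 ± 0.27, adjusted p = 0.00481). Tnfaip3, a deubiquitinase that shuts the pathway down, was lower, at 181, 108 and 108 CPM in marrow and 82.5, 77.8 and 82.9 in spleen (log2 change −0.71 ± 0.20, adjusted p = 0.0477). It lost its call without marrow replicate 2 or 3 or any spleen library (adjusted p up to 0.162).

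Receptors for blood growth factors moved in both directions, with 3 of 23 higher (Il18r1 is the third), 7 lower and 13 not passing (median −0.35). Csf2rb2 and Csf2rb (ENSMUSG00000071713, chromosome 15, 78325752 to 78353847, plus strand), neighbouring and nearly identical genes, were the receptors with the highest counts among those that rose. Csf2rb2 measured 472, 241 and 426 CPM in marrow and 1758, 1917 and 1843 in spleen (log2 change 2.28 ± 0.22, adjusted p = 0.000204). Csf2rb2 encodes a β chain specific to the interleukin-3 receptor, and Csf2rb the β chain shared by the receptors of interleukin-3, interleukin-5 and GM-CSF. For Csf2rb the values were 594, 313 and 482 CPM in marrow and 1677, 1817 and 1746 in spleen (log2 change 1.92 ± 0.20, adjusted p = 0.0002). The groups were apart in both, marrow replicate 2 was the lowest, and the split of reads between the copies is uncertain. The GM-CSF-specific chain Csf2ra was lower, at 5.78, 4.90 and 7.96 CPM in marrow and 0.728, 0.575 and 0.608 in spleen (log2 change −3.28 ± 0.27, adjusted p = 2.68e-05). Kit (ENSMUSG00000005672, chromosome 5, 75574916 to 75656722, plus strand), the receptor for stem cell factor, fell from 161, 104 and 131 to 81.6, 64.6 and 79.0 CPM (log2 change −0.82 ± 0.15, adjusted p = 0.00538). All spleen libraries lay under all marrow libraries. Tek, the angiopoietin receptor, differed by less, with 118, 131 and 129.8 CPM in marrow and 106, 96.8 and 101 in spleen (log2 change −0.32 ± 0.08, adjusted p = 0.0241; adjusted p up to 0.139 without a spleen library). The tumour necrosis factor receptor gene Tnfrsf1a was scarce in both tissues, at 2.64, 1.81 and 3.83 CPM in marrow and 0.50034, 0.177 and 0.583 in spleen (log2 change −2.65 ± 0.44, adjusted p = 0.00225). Csf3r, the G-CSF receptor gene of neutrophils, measured 4.78, 4.28 and 7.74 CPM in marrow and 1.82, 0.354 and 0.583 in spleen (log2 change −2.65 ± 0.51, adjusted p = 0.00841). Without any one of the spleen libraries 4 members were called lower, and 5 were called higher without marrow replicate 3.

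Genes of protein folding were moderately higher in spleen. The unfolded protein response raises the folding capacity of the endoplasmic reticulum through the factors XBP1, ATF6 and ATF4. Of its 23 tested genes, 9 were higher, 0 lower and 14 did not pass (median 0.27). Xbp1 (ENSMUSG00000020484, chromosome 11, 5520659 to 5525893, plus strand) itself measured 44.8, 34.6 and 40.7 CPM in marrow and 86.2, 83.8 and 84.3 in spleen (log2 change 1.08 ± 0.10, adjusted p = 5.78e-05), with no overlap between the groups. The chaperone genes Sdf2l1 (0.61 ± 0.10), Hyou1 (0.51 ± 0.10), Creld2 (0.39 ± 0.10) and Dnajb11 (0.32 ± 0.08 in log2 units) followed. Calr, a calcium-binding chaperone of glycoproteins, was at 977, 784 and 814 CPM in marrow and 1072, 1149 and 1118 in spleen (log2 change 0.38 ± 0.11, adjusted p = 0.0442). Hsp90b1, the HSP90 family chaperone of this compartment, was at 441, 493 and 389 CPM in marrow and 612, 585 and 544 in spleen (log2 change 0.40 ± 0.11, adjusted p = 0.0291). Hspa5, the abundant chaperone BiP, did not pass, at 915, 764 and 487 CPM in marrow and 843, 873 and 823 in spleen (adjusted p = 0.484). The list rested on all spleen libraries: 4 members were called higher without replicate 1, 3 without replicate 2 and 3 without replicate 3, and 11 without marrow replicate 3. Calr and Creld2 lost their calls without marrow replicate 2 or any spleen library, Hsp90b1 without marrow replicate 1 or any spleen library, and Dnajb11 without spleen replicate 2 or 3 (adjusted p up to 0.166, 0.11, 0.125 and 0.112).

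The endoplasmic reticulum stress element, CCAAT and CCACG with any 9 bases between them, searched on both strands, was found in 8 of the 20 promoters of this list (40.0%) and in 0.138% of all promoters. Of these 8 genes Creld2, Hsp90b1, Canx and Calr were called higher, and Syvn1, Pdia6, Hspa5 and Dnajc3 did not pass. Here too a high share follows from membership of the list and is no result of these libraries. The element is shown in capitals in a pair of genes that rose, which carry it 162 and 107 bases before the start at the nearest.
Calr, chr8:84846932-84847181, minus strand: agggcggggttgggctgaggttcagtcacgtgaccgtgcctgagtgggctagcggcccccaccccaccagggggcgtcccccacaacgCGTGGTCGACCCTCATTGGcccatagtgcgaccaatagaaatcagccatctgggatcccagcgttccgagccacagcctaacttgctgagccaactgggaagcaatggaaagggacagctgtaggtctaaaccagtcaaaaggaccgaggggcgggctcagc
Hsp90b1, chr10:86705445-86705694, minus strand: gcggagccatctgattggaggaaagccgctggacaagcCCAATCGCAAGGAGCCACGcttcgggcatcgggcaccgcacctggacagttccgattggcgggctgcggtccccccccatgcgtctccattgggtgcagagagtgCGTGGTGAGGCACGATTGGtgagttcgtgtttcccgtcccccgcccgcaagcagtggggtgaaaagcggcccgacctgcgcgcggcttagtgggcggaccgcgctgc

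Among 19 genes of ATF4 and the integrated stress response, 8 were higher, 2 lower and 9 did not pass (median 0.29). Mthfd2, a mitochondrial folate enzyme, measured 71.4, 75.6 and 70.0 CPM in marrow and 131, 138 and 129 in spleen (log2 change 0.87 ± 0.08, adjusted p = 4.35e-05). Asns, the asparagine synthetase gene, was at 146, 181 and 144 CPM in marrow and 247, 245 and 244 in spleen (log2 change 0.64 ± 0.10, adjusted p = 0.0014). Ppp1r15a, which restores translation after stress and is also an immediate early gene, fell from 342, 208 and 184 to 68.5, 81.0 and 78.2 CPM (log2 change −1.69 ± 0.23, adjusted p = 0.00393). Of 13 genes of heat shock chaperones and their control, 5 were higher, 1 lower and 7 did not pass (median 0.30). Hsph1, which helps HSP70 release its clients, was at 143, 111 and 108 CPM in marrow and 223, 220.0 and 209.7 in spleen (log2 change 0.85 ± 0.11, adjusted p = 0.000441). Hspa1b (1.48 ± 0.23), the mitochondrial chaperonin gene Hspd1 (0.49 ± 0.10) and Hspa8 (0.61 ± 0.14 in log2 units) rose with it, as did Dnaja1, while Dnajb1 fell. Hspa8 lost its call without any one of the spleen libraries (adjusted p up to 0.0703). Without spleen replicate 1, 2 or 3 the ATF4 list had 3, 2 and 2 members higher and the heat shock list 3 in each case, and 8 heat shock genes were higher without marrow replicate 2.

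Lists of metabolic genes had medians near 0, of either sign. Of 30 nuclear genes of the respiratory chain 1, Atp5g1, was higher and 29 did not pass (median −0.07), with 0 higher without any one spleen library and 4 lower without marrow replicate 3. Of 33 hypoxia and glycolysis genes 8 were higher, 3 lower and 22 did not pass (median 0.16). The vessel growth factor gene Vegfa measured 20.6, 21.5 and 22.5 CPM in marrow and 38.5, 39.5 and 37.3 in spleen (log2 change 0.83 ± 0.09, adjusted p = 0.000131). Hk2, which starts glycolysis, was at 31.6, 28.7 and 33.4 CPM in marrow and 54.7, 46.6 and 49.8 in spleen (log2 change 0.69 ± 0.10, adjusted p = 0.000918). The glucose transporter gene Slc2a3 was at 319.9, 168 and 215 CPM in marrow and 488, 521 and 496 in spleen (log2 change 1.10 ± 0.21, adjusted p = 0.00923), and it lost its call without marrow replicate 3 (adjusted p = 0.0853). Against these, the hypoxia-inducible genes Pfkfb4 (2.76, 2.40 and 2.55 CPM in marrow and 0.136, 0.133 and 0.253 in spleen; log2 change −3.76 ± 0.38, adjusted p = 9.59e-05) and Ndrg1 (−1.95 ± 0.27) were lower, as was Mxi1. Of 25 genes of cholesterol synthesis and its control 7 were higher and 0 lower (median 0.19), including the synthesis gene Mvd (0.80 ± 0.16) and the sterol exporter gene Abcg1 (0.54 ± 0.10 in log2 units). Iron genes were higher in 4 of 16 cases and lower in 0 (median 0.11), with Flvcr1 and Steap3 beside the following pair. Tfrc, the transferrin receptor gene, measured 152, 173 and 139 CPM in marrow and 252, 242 and 222 in spleen (log2 change 0.63 ± 0.10, adjusted p = 0.00153). Aco1, the iron-sensing aconitase gene, measured 3.10, 1.29 and 3.17 CPM in marrow and 7.41, 6.33 and 7.83 in spleen (log2 change 1.52 ± 0.29, adjusted p = 0.0055). Myc, a driver of growth, was 269.9, 234 and 301 CPM in marrow and 399.6, 373 and 398 in spleen (log2 change 0.54 ± 0.10, adjusted p = 0.0048), and 6 of 23 genes of MYC and ribosome biogenesis were higher and 1, Mxd1, lower (median 0.19), Odc1 (0.42 ± 0.09) among the former. Without spleen replicate 1, 2 or 3 the last list had 2, 1 and 1 members higher, the cholesterol list 5, 5 and 4, and the hypoxia list 7, 5 and 5, and Odc1 lost its call each time (adjusted p up to 0.0688). The iron list had 2 members higher without spleen replicate 3.

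The BCL2 family holds genes that promote death and genes that prevent it. Of 11 tested 4 were higher and 0 lower (median 0.12), the death-promoting Bmf and Bax and the pro-survival Bcl2l1 and Bcl2. Bmf, which promotes death when cells lose attachment, measured 3.85, 3.80 and 3.61 CPM in marrow and 21.7, 22.6 and 19.4 in spleen (log2 change 2.50 ± 0.13, adjusted p = 1.58e-06). Bcl2l1 was at 112, 81.6 and 102 CPM in marrow and 151, 166 and 161 in spleen (log2 change 0.69 ± 0.11, adjusted p = 0.00195). Bcl2, its better-known relative, was at 41.8, 35.2 and 38.5 CPM in marrow and 57.0, 48.8 and 50.4 in spleen (log2 change 0.44 ± 0.10, adjusted p = 0.0131). All spleen values were above all marrow values in these 3 genes, and Bcl2 lost its call without spleen replicate 1 (adjusted p = 0.0688), in which case 2 members were called. Among 21 targets of p53, 7 were higher, 2 lower and 12 did not pass (median 0.38), and all spleen libraries lay above all marrow libraries in the named ones that rose. The death receptor gene Eda2r measured 1.89, 0.848 and 1.32 CPM in marrow and 9.69, 9.87 and 8.46 in spleen (log2 change 2.79 ± 0.26, adjusted p = 5.53e-05). Another, Tnfrsf10b, was at 0.377, 0.406 and 0.0880 CPM in marrow and 1.23, 2.74 and 1.11 in spleen (log2 change 2.49 ± 0.55, adjusted p = 0.0114), with the nuclease gene Aen higher by 0.71 ± 0.09 in log2 units. Tnfrsf10b lost its call without spleen replicate 2 (adjusted p = 0.0609). Sesn1, a stress-induced brake on growth signalling, fell (−0.58 ± 0.11), as did Btg2. The list moved with single libraries, with 13 higher without marrow replicate 1, 3 without marrow replicate 3 and 3, 2 and 3 without spleen replicates 1, 2 and 3.

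**Figure D3:**
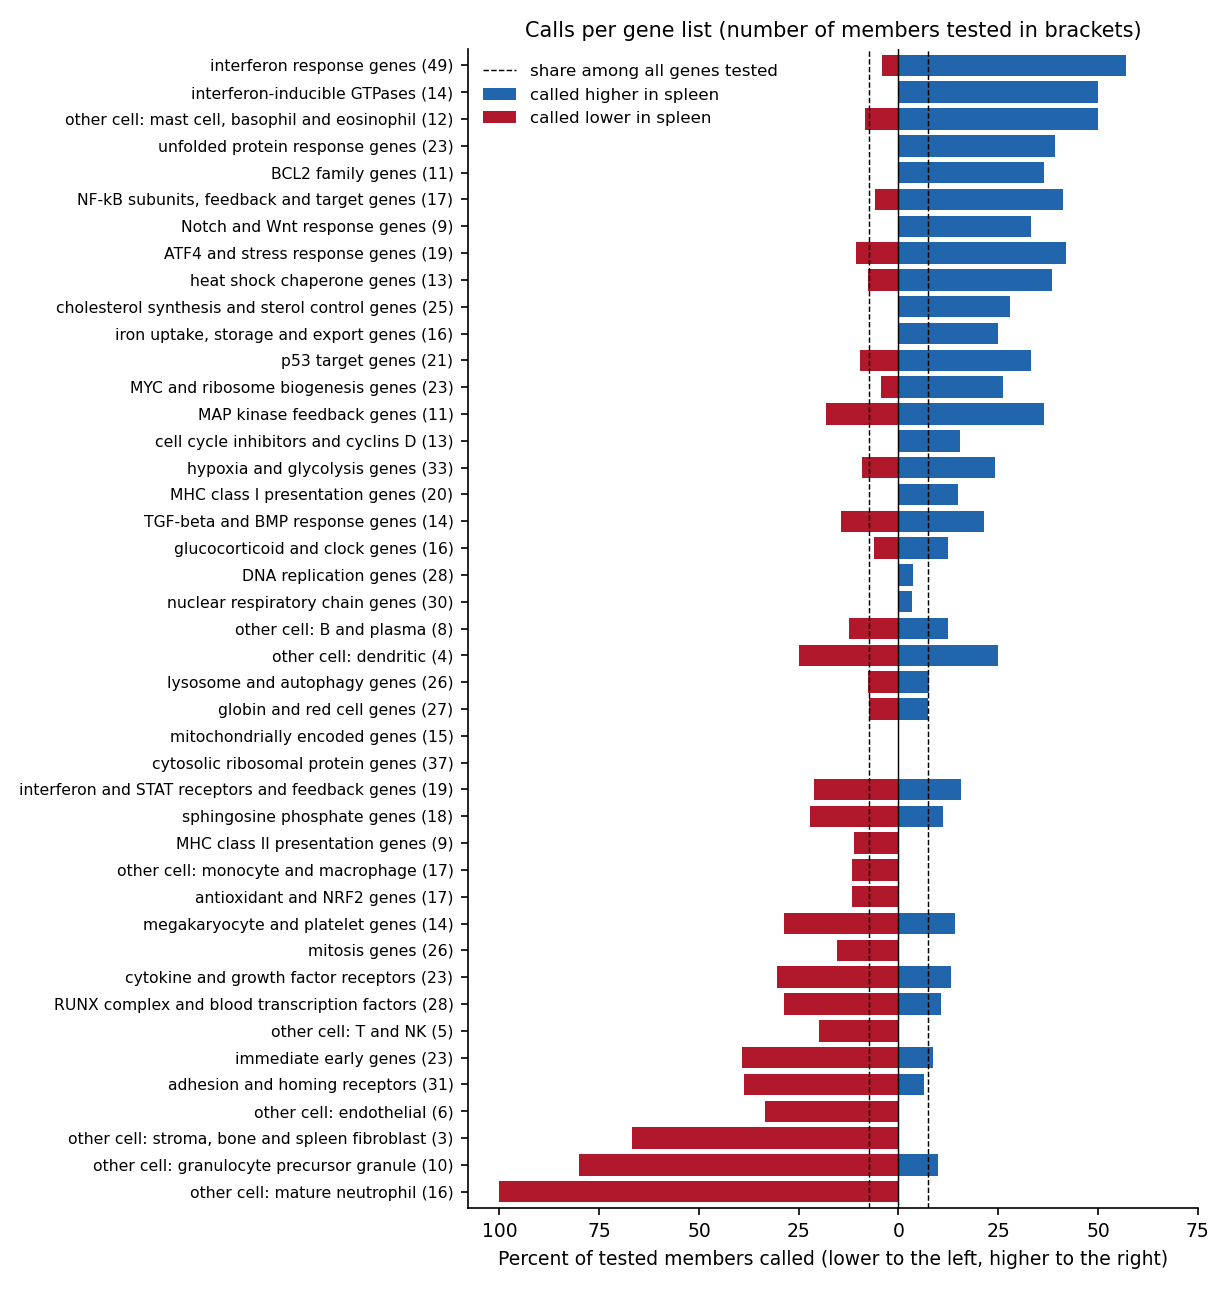
For each of 43 gene lists the bars give the percentage of tested members called higher (blue, to the right) or lower (red, to the left) in spleen. The number tested is in brackets and dashed lines mark the share among all genes tested (7.30% and 7.38%). Interferon lists lie at the top and neutrophil and granule lists at the bottom, where all 16 neutrophil genes tested were lower.

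Lower in spleen were genes of mature neutrophils, the short-lived phagocytes that the marrow produces and stores. All 16 tested genes of this list were lower (median −3.29), and 14 to 18 were called in the fits that left out 1 library. Its 19 members summed to 1455, 1149 and 982 CPM in marrow replicates 1, 2 and 3 and to 190, 60.4 and 101 CPM in spleen. S100a8 (ENSMUSG00000056054, chromosome 3, 90668978 to 90670035, plus strand) and S100a9, the subunits of the antimicrobial protein calprotectin, were the best-known of them. S100a8 measured 253, 218 and 145 CPM in marrow and 24.6, 9.56 and 12.4 in spleen (log2 change −3.74 ± 0.45, adjusted p = 0.00662). For S100a9 the values were 295, 231 and 176 CPM in marrow and 30.5, 12.3 and 18.6 in spleen (log2 change −3.52 ± 0.40, adjusted p = 0.00507). Camp, a cathelicidin peptide of secondary granules, was at 79.8, 83.0 and 68.7 CPM in marrow and 8.73, 2.83 and 4.74 in spleen (log2 change −3.84 ± 0.35, adjusted p = 0.00119). Ltf, the lactoferrin gene, was at 231, 169.8 and 174 CPM in marrow and 38.9, 9.33 and 19.5 in spleen (log2 change −3.09 ± 0.56, adjusted p = 0.0311). Ngp (−3.24 ± 0.52), Lcn2 (−3.33 ± 0.44), Cd177 (−3.15 ± 0.40), Retnlg (−3.44 ± 0.29) and Padi4 (−3.42 ± 0.37 in log2 units) shared the pattern. In all of these the highest spleen library, replicate 1, stayed under the lowest marrow library. Without spleen replicate 3 the calls of Lcn2 (adjusted p = 0.0644), Ngp (0.112) and Ltf (0.147) were lost, without marrow replicate 2 those of Ngp and Ltf, and Ltf also lost its call without marrow replicate 1 or 3. In sorted bulk samples, fewer cells of a type and less RNA per cell cannot be told apart, and which of the sorted cells held these transcripts was not tested.

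Granule genes of neutrophil precursors fell with them: 8 of 10 were lower and 1 higher (median −3.56). Mpo, myeloperoxidase, measured 59.4, 19.5 and 46.4 CPM in marrow and 3.96, 0.221 and 1.27 in spleen (log2 change −4.58 ± 0.89, adjusted p = 0.0388). Elane, neutrophil elastase, was at 19.7, 6.31 and 13.2 CPM in marrow and 1.05, 0.133 and 0.861 in spleen (log2 change −4.21 ± 0.65, adjusted p = 0.00841). Fcnb (−3.63 ± 0.34), Ms4a3 (−2.71 ± 0.27) and the chitinase-like gene Chil3 (−3.12 ± 0.33) were lower too. Mpo lost its call without marrow replicate 1 or 3 or spleen replicate 2 or 3 (adjusted p up to 0.184), and Elane without spleen replicate 3 (0.0643), when 5 members were called. Hdc, the histamine-forming enzyme that mast cells also use, was the member that rose. Of 17 monocyte and macrophage genes 15 did not pass (11.8% called, against 14.7% of all genes tested). Ly6c2, a surface gene of inflammatory monocytes, fell from 15.2, 13.9 and 17.9 to 3.73, 0.619 and 1.82 CPM (log2 change −2.94 ± 0.49, adjusted p = 0.00997). The lysozyme gene Lyz2 fell from 135, 139.8 and 117 to 25.7, 6.64 and 12.7 CPM (log2 change −3.14 ± 0.50, adjusted p = 0.0193). The list had 4 called without marrow replicate 1 and 0 without spleen replicate 3. Both lost their call without spleen replicate 3, and Lyz2 also without marrow replicate 2 (adjusted p up to 0.0816 and 0.112). Itgam, the CD11b integrin of myeloid cells, measured 21.951, 14.7 and 19.3 CPM in marrow and 3.09, 0.752 and 1.44 in spleen (log2 change −3.43 ± 0.41, adjusted p = 0.00145). Anxa1, an anti-inflammatory annexin, was at 56.1, 42.0 and 31.4 CPM in marrow and 7.69, 2.12 and 5.09 in spleen (log2 change −3.12 ± 0.46, adjusted p = 0.012; adjusted p = 0.0844 without spleen replicate 3).

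The spleen libraries ranked in the same order in most of these genes, replicate 1 above 3 above 2: 12 of the 16 neutrophil genes (75.0%) had this order, against 21.8% of all genes tested. Among genes called lower it was found in 51.7% (136 of 263) of those at least 4-fold lower, 28.3% of those 2- to 4-fold lower, 23.6% of those under 2-fold, and in 17.8% of the genes called higher. The genes at least 4-fold lower were scarce, with a median of 0.72 on the average log2 CPM scale. The part of neutrophil RNA in the other lower genes was not tested. Csf3r and Cxcr2, named among the receptors, are members of the neutrophil list, and Itgam is also expressed by neutrophils. Y-linked genes and Xist moved with the same contrast, and their part in the other results was not tested. Eif2s3y had 0.628, 0.627 and 1.23 CPM in marrow and 0.0455, 0 and 0.101 in spleen (log2 change −3.73 ± 0.69, adjusted p = 0.00455). Ddx3y had 0.545, 0.922 and 1.06 CPM in marrow and 0.318, 0.133 and 0.253 in spleen (log2 change −1.81 ± 0.48, adjusted p = 0.0289; adjusted p up to 0.121 in the 5 fits without a library that lost it). Xist, expressed from the inactive X of female cells, was abundant in all 6 libraries, at 825, 1097 and 1293 CPM in marrow and 1750.1, 1778 and 1825 in spleen (log2 change 0.74 ± 0.15, adjusted p = 0.00757).

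**Figure D4:**
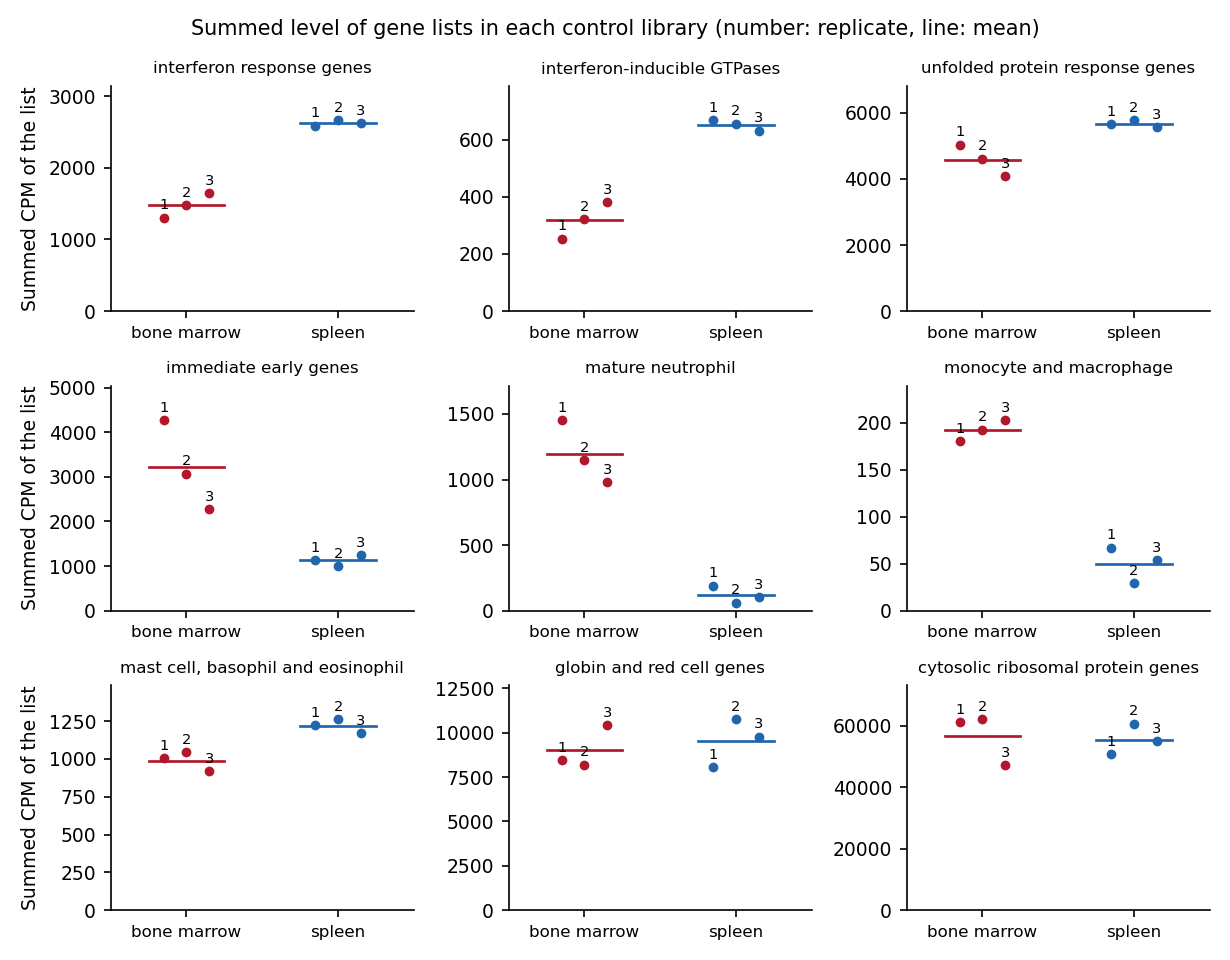
Summed CPM of 9 gene lists in each control library, with the replicate number above each point and a line at the group's mean. Neutrophil genes sum to 982 to 1455 CPM in marrow and 60.4 to 190 CPM in spleen, interferon response genes to 1303 to 1644 and 2589 to 2661 CPM, and the groups overlap for globin and ribosomal protein genes.

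Immediate early genes, which cells switch on without new protein synthesis when stimulated, formed the other large difference. Of 23 tested, 9 were lower, 2 higher and 12 did not pass (median −0.91). Jun (ENSMUSG00000052684, chromosome 4, 95049034 to 95052222, minus strand), a subunit of the AP-1 factor, was the most abundant, at 1609.7, 1314 and 965 CPM in marrow and 336, 269.8 and 385 in spleen (log2 change −1.97 ± 0.19, adjusted p = 0.000139). Fosb, another AP-1 gene, fell from 459, 399 and 192 to 24.3, 28.9 and 46.5 CPM (log2 change −3.39 ± 0.47, adjusted p = 0.0123). Its relative Fos stood at 155, 72.5 and 45.1 CPM in marrow and 10.5, 9.42 and 19.4 in spleen and did not pass (log2 change −2.77 ± 0.62, adjusted p = 0.0556). The growth response factor gene Egr1 measured 244, 144 and 132 CPM in marrow and 42.1, 36.1 and 46.8 in spleen (log2 change −2.05 ± 0.25, adjusted p = 0.00285). Jund, a further AP-1 gene, was at 375, 293 and 254 CPM in marrow and 141, 128 and 167 in spleen (log2 change −1.08 ± 0.15, adjusted p = 0.000952). Zfp36, whose protein speeds the decay of inflammatory messages, was at 308, 153 and 118 CPM in marrow and 49.9, 37.6 and 48.1 in spleen (log2 change −2.09 ± 0.42, adjusted p = 0.0344). Btg2 (−0.91 ± 0.22), Nr4a1 (−1.61 ± 0.37), Atf3 (−1.97 ± 0.53) and Klf4 (−2.01 ± 0.61 in log2 units) were the other members that fell, and each lost its call in at least 2 of the fits that left out a library (adjusted p up to 0.0821, 0.0929, 0.184 and 0.207). In each of the named genes that fell all spleen libraries lay under all marrow libraries, and marrow replicate 1 was the highest in Jun, Fosb, Egr1, Jund, Zfp36 and Fos. The members that rose were Egr2, at 8.55, 5.01 and 7.04 CPM in marrow and 22.4, 18.6 and 20.7 in spleen (log2 change 1.59 ± 0.18, adjusted p = 0.000193), and Fosl2. The latter was at 10.1, 10.4 and 12.4 CPM in marrow and 22.4, 18.7 and 18.1 in spleen (log2 change 0.85 ± 0.13, adjusted p = 0.00152). The calls of Fosb (without spleen replicate 2, adjusted p = 0.0656) and Zfp36 (without marrow replicate 2 or any spleen library, up to 0.143) were lost. The list had 6, 4 and 4 members called lower without spleen replicates 1, 2 and 3 and 6 without marrow replicate 2.

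Dusp1 (ENSMUSG00000024190, chromosome 17, 26505590 to 26562128, minus strand), a phosphatase that switches off stress-activated MAP kinases and is induced with these genes, had one of the largest drops among well-expressed genes. It fell from 119, 67.1 and 31.7 to 4.14, 5.18 and 4.91 CPM (log2 change −3.93 ± 0.60, adjusted p = 0.0169). The marrow libraries differed by over 3-fold among themselves, the spleen libraries hardly, and the call was lost without marrow replicate 2 or any one of the spleen libraries (adjusted p up to 0.1). Other feedback genes of MAP kinase signalling went the other way or were scarce. Spred1, an inhibitor of RAS signalling, was at 49.6, 57.9 and 65.8 CPM in marrow and 104, 87.8 and 90.0 in spleen (log2 change 0.70 ± 0.11, adjusted p = 0.0019), and Spred2 rose as well (1.03 ± 0.16). Dusp6, an ERK phosphatase, was at 2.09, 1.70 and 1.63 CPM in marrow and 0.546, 0.619 and 0.659 in spleen (log2 change −1.55 ± 0.32, adjusted p = 0.00788). Of the 11 genes of this list 4 were higher (with Dusp7 and Etv5) and 2 lower (median 0.33), and 2 were called higher and 1 lower without marrow replicate 2 or any one spleen library. The promoter of Dusp1 holds 1 match to the cyclic AMP response element, TGACGTCA, in capitals, 143 bases before the start. This element was found in 3.03% of all promoters, and in 2.74% and 1.57% of those of genes called higher and lower. It was found in 1, that of Btg2, of the 8 promoters of immediate early genes called lower, a list to which Dusp1 does not belong.
Dusp1, chr17:26508473-26508722, minus strand: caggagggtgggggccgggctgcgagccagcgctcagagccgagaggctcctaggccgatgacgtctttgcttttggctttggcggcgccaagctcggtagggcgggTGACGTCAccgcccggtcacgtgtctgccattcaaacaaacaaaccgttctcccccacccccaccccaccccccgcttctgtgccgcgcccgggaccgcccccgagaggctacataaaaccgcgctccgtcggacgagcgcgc

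Transcription factors of blood cells did not pass in 17 of 28 cases, and 8 were lower and 3 higher (median −0.03; Mitf and Hlf beside Pou4f1). Runx1, the partner of the fusion protein, stood at 231, 243 and 264 CPM in marrow and 268, 227 and 239.8 in spleen (adjusted p = 0.98). Spi1, the myeloid factor PU.1, was at 47.6, 35.4 and 51.2 CPM in marrow and 48.7, 50.8 and 52.9 in spleen (adjusted p = 0.379). Runx3, a paralogue of Runx1, fell from 33.3, 26.2 and 32.7 to 8.96, 9.03 and 10.4 CPM (log2 change −1.69 ± 0.12, adjusted p = 1.19e-05). The growth and lineage repressor Gfi1b fell from 546, 422 and 499 to 310.3, 321 and 323 CPM (log2 change −0.62 ± 0.10, adjusted p = 0.00238). The stem cell factors Erg (−0.52 ± 0.09) and Etv6 (−0.45 ± 0.09 in log2 units) were lower by less than 1.5-fold. Cebpa, a granulocyte factor, was near the floor, at 1.01, 1.14 and 1.36 CPM in marrow and 0.182, 0.0442 and 0.152 in spleen (log2 change −3.13 ± 0.49, adjusted p = 0.0017). So was Cebpb, at 1.72, 1.92 and 2.02 CPM in marrow and 1.05, 0.177 and 0.557 in spleen (log2 change −1.67 ± 0.47, adjusted p = 0.0366). It was called in 1 of the 6 fits that left out a library (adjusted p up to 0.142 in the others). Pou4f1, which is known as a marker of core-binding-factor leukaemias, was higher, at 13.7, 20.8 and 17.9 CPM in marrow and 37.4, 33.7 and 30.1 in spleen (log2 change 0.94 ± 0.15, adjusted p = 0.00153). All spleen libraries lay to one side of all marrow libraries in these genes other than Runx1 and Spi1. Without marrow replicate 3, 6 members of the list were called higher, 1 without spleen replicate 1, and 5 were called lower without spleen replicate 3.

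Adhesion and homing receptors, which hold leukaemia cells in a niche or let them leave it, were lower in 12 of 31 cases and higher in 2, and 17 did not pass (median −0.19). Selplg, the ligand of selectins on vessels, measured 51.8, 42.2 and 51.3 CPM in marrow and 17.1, 19.2 and 21.9 in spleen (log2 change −1.31 ± 0.12, adjusted p = 5.07e-05). Cxcr4, the receptor for the marrow chemokine CXCL12, was scarce in all libraries, at 3.52, 2.99 and 5.10 CPM in marrow and 0.364, 0.0442 and 0.481 in spleen (log2 change −3.58 ± 0.49, adjusted p = 0.000721). The neutrophil receptor gene Cxcr2 was at 4.99, 4.83 and 4.66 CPM in marrow and 1.05, 0.708 and 0.380 in spleen (log2 change −2.82 ± 0.33, adjusted p = 0.000267). The β2 integrin chain Itgb2 was lower, at 27.6, 17.3 and 25.8 CPM in marrow and 9.60, 9.25 and 8.66 in spleen (log2 change −1.36 ± 0.17, adjusted p = 0.000324). Its partner Itgal was higher, at 12.1, 7.82 and 11.7 CPM in marrow and 23.1, 18.8 and 22.3 in spleen (log2 change 1.03 ± 0.16, adjusted p = 0.00179). So was Itgb3, the vitronectin receptor chain that platelets and mast cells use, at 2.35, 1.33 and 2.24 CPM in marrow and 7.28, 7.52 and 5.88 in spleen (log2 change 1.81 ± 0.24, adjusted p = 0.000687). Cd44, a hyaluronan receptor, measured 4.23, 4.46 and 5.50 CPM in marrow and 2.82, 0.841 and 2.25 in spleen (log2 change −1.25 ± 0.35, adjusted p = 0.035) and was called in 1 of the 6 fits that left out a library (adjusted p up to 0.093 in the others). A pair of abundant integrins differed by little. Itga4 had 315, 324 and 365 CPM in marrow and 286, 263 and 269 in spleen (log2 change −0.30 ± 0.09, adjusted p = 0.0438; adjusted p up to 0.21 without marrow replicate 3 or a spleen library). Itgb1, its partner chain, had 626, 744 and 547 CPM in marrow and 711, 670.4 and 645 in spleen (adjusted p = 0.714). Fits without 1 library called 10 to 12 members lower.

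Of 12 mast cell, basophil and eosinophil genes tested 6 were higher, 1 (Ear2) was lower and 5 did not pass (median 0.41), and 6 were called higher in every fit that left out 1 library. The median was −0.0017 without spleen replicate 1 and 0.84 without marrow replicate 3. Hdc was the most abundant of those that rose, at 260.2, 264 and 261 CPM in marrow and 435, 486 and 449 in spleen (log2 change 0.80 ± 0.08, adjusted p = 0.000119). The α chain of the IgE receptor, Fcer1a, measured 7.21, 6.31 and 4.00 CPM in marrow and 18.9, 23.7 and 21.5 in spleen (log2 change 1.87 ± 0.19, adjusted p = 0.000117). Cd200r3, a basophil receptor gene, measured 39.0, 47.1 and 47.1 CPM in marrow and 78.2, 83.8 and 75.5 in spleen (log2 change 0.83 ± 0.10, adjusted p = 0.000262). The chymase gene Cma1 was at 0.377, 0.147 and 0.264 CPM in marrow and 5.05, 3.80 and 3.42 in spleen (log2 change 3.95 ± 0.36, adjusted p = 5.53e-05). The protease gene Mcpt1 had 0, 0 and 0.0440 CPM in marrow and 0.955, 0.841 and 0.810 in spleen. Gzmb, the granzyme B gene, had 0.586, 0.258 and 0.616 CPM in marrow and 5.00, 2.34 and 3.01 in spleen, and both were called higher. Cpa3, the mast cell carboxypeptidase, did not pass, at 81.7, 63.6 and 38.7 CPM in marrow and 45.9, 42.8 and 38.3 in spleen (adjusted p = 0.227).

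The share called was 42.9% among megakaryocyte and platelet genes and 14.8% among red cell genes, against 14.7% of all genes tested. Of 14 megakaryocyte and platelet genes 4 were lower and 2 higher (median −0.14). Treml1, a granule receptor of platelets, was at 42.3, 51.8 and 54.5 CPM in marrow and 17.8, 21.5 and 21.5 in spleen (log2 change −1.28 ± 0.12, adjusted p = 5.78e-05). Gp1bb, a chain of the von Willebrand factor receptor, was at 18.5, 19.8 and 20.1 CPM in marrow and 7.23, 8.94 and 8.56 in spleen (log2 change −1.24 ± 0.12, adjusted p = 8.81e-05). F2r and Itgb3 were the members that rose, and Gp9 and Rab27b fell too. Of 27 globin and red cell genes 2 were higher, 2 lower and 23 did not pass (median 0.03). The adult globin gene Hbb-bs ranged from 197 to 813 CPM over the 6 libraries and the groups overlapped (adjusted p = 0.566). The red cell factor Gata1 measured 332, 273 and 309.9 CPM in marrow and 369.9, 383 and 375 in spleen (log2 change 0.30 ± 0.09, adjusted p = 0.0498). Bpgm (−0.48 ± 0.09) was lower and the haem enzyme gene Cpox was higher (0.43 ± 0.08 in log2 units). Gata1 lost its call without marrow replicate 2 or any spleen library (adjusted p up to 0.174), and 7 members were called higher without marrow replicate 3.

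Genes of signals that tissues send to blood cells were tested as short lists. Of 14 TGF-β and BMP genes 3 were higher (with Skil) and 2 lower (Bambi and Tgfbi; median 0.31). Id1, a BMP target that holds cells undifferentiated, measured 0.712, 0.295 and 0.132 CPM in marrow and 3.27, 3.23 and 2.81 in spleen (log2 change 3.01 ± 0.44, adjusted p = 0.00114). The cytokine gene Tgfb1 was at 497, 395 and 479.6 CPM in marrow and 677, 734 and 716 in spleen (log2 change 0.63 ± 0.11, adjusted p = 0.00256). The number called higher was 5 without marrow replicate 3, and 0 were called lower without marrow or spleen replicate 2. Of 9 Notch and Wnt genes 3 were higher (with Notch1) and 0 lower (median 0.17, but 0.03 without spleen replicate 1 and 0.35 without marrow replicate 3). The receptor gene Notch2 was at 115, 112 and 163 CPM in marrow and 217, 214 and 218 in spleen (log2 change 0.74 ± 0.13, adjusted p = 0.00341). Its target Hey1 was at 0.168, 0.258 and 0.176 CPM in marrow and 1.68, 0.664 and 0.836 in spleen (log2 change 2.35 ± 0.51, adjusted p = 0.0109; adjusted p = 0.0587 without spleen replicate 1). Among 16 glucocorticoid and clock genes 13 did not pass (median 0.23) and Cxcr4 was lower. The share called was 18.8%, against 14.7% of all genes tested. The clock repressor gene Per2 rose, at 11.6, 7.52 and 10.8 CPM in marrow and 27.3, 25.9 and 26.3 in spleen (log2 change 1.41 ± 0.15, adjusted p = 0.00013). So did Bhlhe40, at 36.7, 26.1 and 37.6 CPM in marrow and 73.8, 69.9 and 68.7 in spleen (log2 change 1.08 ± 0.13, adjusted p = 0.000292), and 4 were called higher without marrow replicate 3. The hour at which each tissue was taken is not given in the labels.

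In other lists the share called was 33.3% (sphingosine phosphate genes), 11.8% (antioxidant genes) and 15.4% (lysosome and autophagy genes). Of all genes tested it was 14.7%. Acer3, an alkaline ceramidase gene, was at 5.45, 7.15 and 4.53 CPM in marrow and 0.819, 0.575 and 0.405 in spleen (log2 change −3.29 ± 0.31, adjusted p = 6.43e-05). It is one of 18 sphingosine phosphate genes, of which 4 were lower (with Sgpp1, Cerk and Mfsd2b) and 2 higher (Acer2 and Ugcg; median −0.12), or 2 lower without spleen replicate 2 or 3. Gpx1, the glutathione peroxidase that clears hydrogen peroxide, was lower, at 1056, 1178 and 1034 CPM in marrow and 509.7, 608 and 575 in spleen (log2 change −0.95 ± 0.11, adjusted p = 0.000204). Of 17 antioxidant genes 15 did not pass (median −0.09) and Srxn1 was the other one lower, although 5 were called lower without marrow replicate 3. The autophagy receptor gene Sqstm1 rose with Tfe3 (0.54 ± 0.10 in log2 units for Sqstm1) and Wipi1 fell, while 22 of 26 genes of lysosome and autophagy did not pass (median −0.06).

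Cell division and the basic machinery of the cells differed little. Mki67, a marker of cycling cells, measured 1209, 1519 and 1544 CPM in marrow and 1379, 1275 and 1306 in spleen (adjusted p = 0.598), and 27 of 28 DNA replication genes and 22 of 26 mitosis genes did not pass (medians −0.12 and −0.14). The shares called in these lists were 3.57% and 15.4%, against 14.7% of all genes tested. Rrm2, a subunit of ribonucleotide reductase, was higher, at 190.5, 146 and 148 CPM in marrow and 253, 244 and 243 in spleen (log2 change 0.61 ± 0.11, adjusted p = 0.00294). Of the mitosis genes, Cenph was lower, at 75.8, 88.1 and 63.8 CPM in marrow and 51.8, 50.5 and 47.6 in spleen (log2 change −0.60 ± 0.11, adjusted p = 0.00475), as were Ccnb2 (−0.37 ± 0.08), Ttk (−0.42 ± 0.10) and Nusap1. Ccnb2 lost its call without spleen replicate 2 or 3 and Ttk without any spleen library (adjusted p up to 0.0813 and 0.122). Called mitosis genes numbered 2, 1 and 1 without spleen replicates 1, 2 and 3 and 6 without marrow replicate 3. The D cyclins Ccnd2 (336, 339.8 and 376 CPM in marrow and 514, 477 and 469 in spleen; log2 change 0.47 ± 0.09, adjusted p = 0.00481) and Ccnd3 (0.56 ± 0.15; adjusted p up to 0.0893 without a spleen library) were higher. Of 37 cytosolic ribosomal protein genes and 15 mitochondrially encoded genes 0 passed with edgeR, with medians of −0.07 and −0.16. Without marrow replicate 3, 1 ribosomal and 4 mitochondrial genes were called lower.

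Other cell types that the sort could have let through were followed by their markers. Monocyte and macrophage genes summed to 180 to 203 CPM in marrow and 29.1 to 67.0 CPM in spleen. Without Lyz2 and Ly6c2, the members called, the sums were 29.6, 38.9 and 68.3 CPM in marrow and 37.6, 21.9 and 39.0 in spleen, which overlap. Dendritic cell genes summed to 29.2, 43.1 and 56.9 CPM in marrow and 70.4, 77.0 and 76.7 in spleen. Bst2, also an interferon response gene, was the dendritic member called higher and Zbtb46 the one called lower, and without this pair the sums were 6.33, 15.0 and 29.0 CPM in marrow and 6.50, 1.55 and 5.47 in spleen. The sums of B and plasma cell genes were 73.0 to 129.7 and 66.5 to 89.7 CPM. For T and NK genes the range was 221 to 261 and 242 to 287 CPM, with 11 of 20 under 1 CPM in every library. The macrophage complement gene C1qa was at 1.42, 2.47 and 5.45 CPM in marrow and 1.91, 1.15 and 2.48 in spleen (adjusted p = 0.347). The immunoglobulin gene Igkc was at 1.97, 3.47 and 17.8 CPM in marrow and 24.8, 5.35 and 19.6 in spleen, and Ighm at 4.78, 6.05 and 38.6 CPM in marrow and 8.5967, 2.43 and 5.83 in spleen. The groups overlapped in all 3. Cd79a, a B cell receptor chain, was at 2.97, 1.95 and 2.55 CPM in marrow and 5.50, 5.53 and 5.8 in spleen (log2 change 1.17 ± 0.21, adjusted p = 0.00363). The tetraspanin gene Cd37 was at 22.2, 13.2 and 19.5 CPM in marrow and 6.50, 7.79 and 8.69 in spleen (log2 change −1.25 ± 0.19, adjusted p = 0.00153). Endothelial genes summed to 359 to 453 and 351 to 381 CPM, and 10 of 16 were under 1 CPM in every library. Kdr, a VEGF receptor gene, held 50.6, 60.3 and 96.7 CPM in marrow and 26.2, 28.8 and 29.3 in spleen (log2 change −1.30 ± 0.23, adjusted p = 0.00775). Genes of stroma, bone and spleen fibroblasts summed to 160.5 to 201.4 CPM in marrow and 124.5 to 135.5 CPM in spleen. Of the 24 members 21 were under 1 CPM in every library. Of 3 tested, 2 were called lower (median −0.51), and 1 to 2 in the fits that left out 1 library.

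The same tissue difference was then read in the doxycycline libraries, which share no sample with the controls. Between spleen doxycycline and bone marrow doxycycline 0 of 13325 genes tested were called with edgeR (0%; 1067 genes, 8.01%, at an unadjusted p under 0.05). Of the 1806 genes called in controls and tested in both, 1034 (57.3%) had the same sign under doxycycline, against 49.7% of all 12667 genes tested in both. The share differed with the size of the change. Of 206 genes at least 4-fold lower in spleen control 172 were also lower in spleen doxycycline (median −2.86 in controls and −1.76 with doxycycline), as were 112 of 208 genes that were 2- to 4-fold lower. Of 55 genes at least 4-fold higher, 35 were higher (medians 2.54 and 0.85). Among genes that changed by under 2-fold, 210 of 483 called lower were lower under doxycycline, and 391 of 655 called higher were higher. Over all 12667 genes 5677 were lower and 6990 higher in spleen doxycycline. All 16 neutrophil genes were lower in spleen in both sets, with medians of −3.29 and −3.03, and the list summed to 330 to 688 CPM (not TMM-scaled) in bone marrow doxycycline and 18.1 to 160 in spleen doxycycline.

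The signs differed for other lists. Of 46 interferon response genes tested in both sets 40 had a negative log2 fold change under doxycycline (5677 of all 12667 genes had one), with a median of 0.81 in controls and −0.45 with doxycycline. Of 22 immediate early genes 15 had a positive one, as had 6990 of all 12667 genes (medians −0.83 and 0.69 for the list). Interferon response genes summed to 1281 to 1708 CPM (not TMM-scaled) in bone marrow control and 2595 to 2627 in spleen control. With doxycycline they summed to 2261 to 2934 in marrow and 849.8 to 2775 in spleen, and to 593.7 to 849.6 in secondary disease. For immediate early genes the sums were 2371 to 4204 and 979.4 to 1251 CPM in these controls. With doxycycline they were 710.9 to 843.8 in marrow and 465.6 to 2396 in spleen, and 1040 to 1582 in secondary disease. Tph1 had a log2 fold change of 0.52 ± 1.23 under doxycycline, Csf2rb2 0.76 ± 0.76, Isg15 −0.73 ± 0.69, Socs1 −0.40 ± 0.54 and Jun 1.31 ± 0.67, with adjusted p-values all above the threshold. Kit had a log2 fold change of −0.82 ± 0.24 under doxycycline and −0.82 ± 0.15 in controls. A test of the difference between the treatments called 23 of 14140 genes (0.163%). Of 208 genes named by the rule and tested, 4 were called: Phf11d, Pou4f1, Cenph and Dusp1. Nr4a1, chosen after its values were seen, was called too. The test uses the control libraries and is not independent of the calls above. Phf11d, Pou4f1 and Dusp1 are fixed genes, chosen with earlier results of these data known. Without any one of the spleen control libraries 0 genes were called with edgeR in this test. The spleen doxycycline libraries were far more spread than the controls, as given above.

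**Figure D5:**
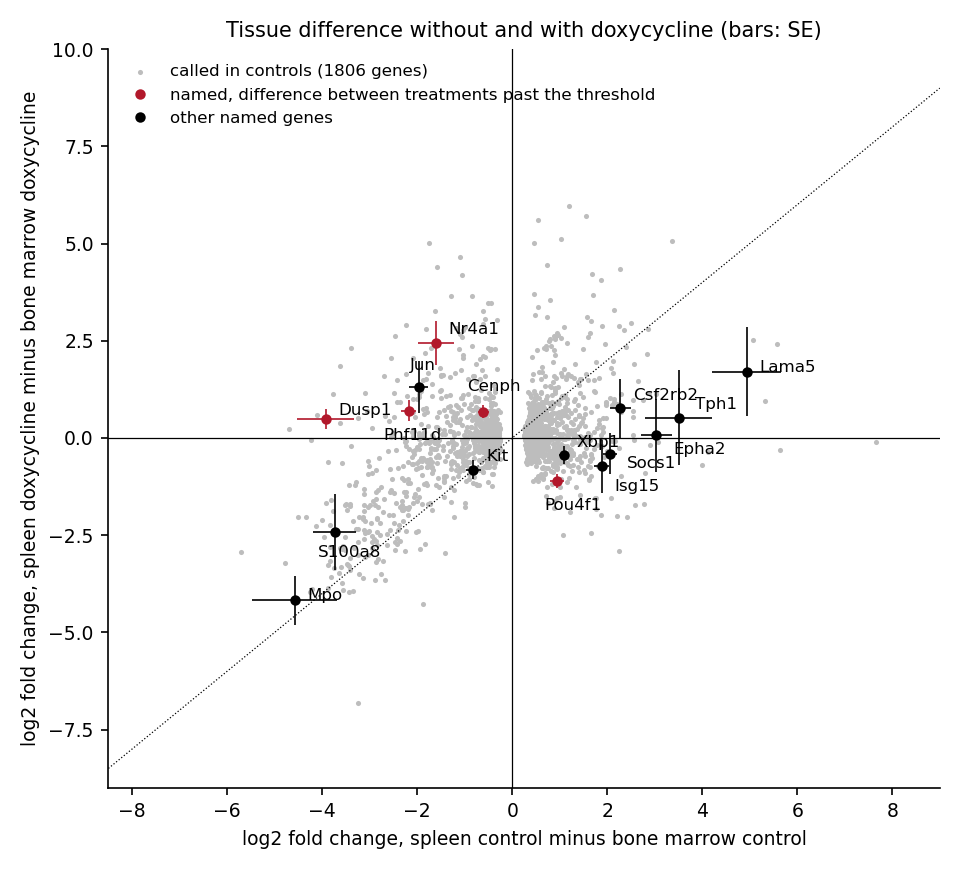
The 1806 genes called in controls and tested in both sets are placed by their log2 fold change, spleen minus bone marrow, in controls (x axis) and under doxycycline (y axis). Bars on named genes are SE, and the dotted line marks equal values. S100a8, far to the left, is negative on both axes (−3.74 and −2.42), whereas Phf11d, Dusp1, Cenph, Nr4a1 and Pou4f1 (red) have opposite signs on the axes.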

How the data were processed

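RNA from sorted GFP-positive cells was sequenced in 16 libraries of 5 groups. The authors deposited 1 table of expected counts per gene for all libraries, and 1 file of TPM (length-scaled transcript levels) per library. Per the submitters' processing notes the tools were Trim Galore, FastQC, MultiQC, STAR and RSEM and the build GRCm38. Versions and the strand setting are not given in the sources used here. Irf7 is not the only named gene whose exons overlap a gene on the other strand. By group means the partner moved the same way for Ebi3 (Gm16712), Itga4 (Cerkl) and Ccnd3 (Bysl), and the opposite way for Sqstm1 (Mrnip). The part of such reads in the counts was not tested. RSEM divides reads between similar genes by a model, which can shift counts between near-identical copies. Each of the 16 TPM files matched its own column of the table best (lowest correlation across genes 0.939).

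Expected counts were rounded to whole numbers. Genes were filtered with filterByExpr, scaled by TMM and tested with edgeR's robust quasi-likelihood test (edgeR 4.0.16, limma 3.58.1, R 4.3.3), in a model of the 6 control libraries alone, without a replicate block. A gene was called at a Benjamini-Hochberg adjusted p under 0.05, and the fit was tested on simulated data. TPM values were used only for levels across groups. Coordinates come from GENCODE M21 (GRCm38), which holds 55394 of the 55487 gene identifiers, 54586 with the same symbol.

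The gene lists (44) and the members named were chosen with earlier results of these data known. Genes were drawn from a rule: up to 15 called genes a direction that changed most, if their average log2 CPM was 3 or more and the groups were apart, the 4 lowest p-values in each list, the 3 most abundant members of each list of other cell types, and 16 fixed genes. Some genes that the rule names are not reported here. Of the 185 genes with values in the text, 40 were chosen outside it, after their values were seen, as were members named without a value to complete a count. Alternatives were DESeq2 size factors, other filters, the block, larger models, DESeq2 1.42.0, limma-voom, a test against a fold of 1.2, and leaving out each library.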

Additional observations from a re-analysis of the deposited data

Results flagged for a closer look

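In 5 genes named in the report the tissue difference under doxycycline departed from that in the controls by a test of the difference itself (an interaction term over the 12 libraries of the 4 groups at 7 days, edgeR's quasi-likelihood test with Benjamini-Hochberg adjustment over 14140 genes). Phf11d, lower in spleen control by −2.18 ± 0.17 on the log2 scale, had 0.70 ± 0.26 under doxycycline, a departure of 2.88 ± 0.29 (adjusted p = 0.0113). Dusp1 had −3.93 ± 0.60 in controls and 0.49 ± 0.26 under doxycycline, a departure of 4.42 ± 0.56 (adjusted p = 0.0281). Nr4a1, an immediate early gene chosen after its values were seen, had −1.61 ± 0.37 and 2.45 ± 0.57, a departure of 4.04 with an adjusted p of 0.0472. Cenph, a centromere gene, had −0.60 ± 0.11 and 0.68 ± 0.17, a departure of 1.27 ± 0.20 (adjusted p = 0.0485). Pou4f1 went the other way, from 0.94 ± 0.15 to −1.10 ± 0.18, a departure of −2.05 ± 0.24 (adjusted p = 0.0176). Each difference is spleen minus bone marrow, over 3 libraries a group. The test uses the control libraries, so it is not independent of the control comparison.

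The calls were lost when a single spleen control library was left out: 0 genes were then called in this test, whichever of the 3 it was. Without marrow control replicate 2 the named genes called by the naming rule were Phf11d and Pou4f1, and without replicate 3 they were Phf11d and Dusp1.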

How the results depend on the processing

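The number of genes called was 1927. It was 27 in a model of all 16 libraries, 94 in a model of the 12 libraries at 7 days and 1014 in a test against a 1.2-fold change. With 1 library left out it ranged from 1022 to 2457. All 27 and all 94 calls were among the 1927. In a model of 9 libraries that kept the spleen doxycycline libraries out, chosen after seeing the data, 1997 genes were called, 1741 of them also called in the main comparison. The number of called genes with the same direction in the doxycycline libraries was 1034 of 1806, and 17 of 27 with the model of all libraries. The number of rule-named genes whose tissue difference departed under doxycycline was 4, and from 0 to 4 with 1 library left out, an alternative chosen after seeing the data.

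DESeq2 size factors gave 1930 calls, limma-voom 1937, DESeq2 2230, no filter 2583 and a mean count of at least 50 gave 1560. No called gene changed direction in any of the 16 alternatives. All of them reuse the control libraries, whose groups did not overlap in nearly all called genes, so this is no further support for a direction.

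The labels do not say whether equal replicate numbers mark a pair. Deviations of same-numbered spleen and marrow libraries correlated at −0.124, 0.00995 and 0.14 for numbers 1, 2 and 3. Those of differently numbered libraries correlated at −0.194 to 0.189. With 3 libraries a group these values cannot settle whether the samples were paired. With a replicate block 2107 genes were called, 1815 of the main calls among them. Named genes without a call under the block were C2cd4a, Lama5, Tph1, Rab44, Kalrn, Ecm1, Dusp1, Fosb, Zfp36, Ppp1r15a, Ltf, Lyz2 and Ly6c2 (13, adjusted p from 0.0531 to 0.16), and B2m and Cpa3 were called. With 1 library left out, the median of 25 of the 44 lists moved by over 1.5 times, and it changed sign in 5 (cytosolic ribosomal proteins, mitochondrially encoded, red cell, B cell and mast cell genes).

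Limits: 3 libraries a group, no stated link between replicates and mice, and 1 contrast in which tissue cannot be told apart from the mice or cells sampled. Genes under 1 CPM rest on few counts a library.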

Other observations

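A pair of gut and pancreatic hormone genes that lie close together on chromosome 11 were transcribed in the spleen controls and at or near 0 elsewhere. Pyy (peptide YY) had 0 counts in all 3 marrow control libraries and 4.05, 6.15 and 4.61 CPM in spleen, at least 121-fold higher against a floor of 3 counts over the marrow libraries. Ppy (pancreatic polypeptide) had 0 counts in marrow and 0.728, 1.06 and 0.836 CPM in spleen, at least 21.5-fold higher by the same floor. On the TPM scale Pyy stood at 23.1, 33.2 and 20.9 in the 3 spleen control libraries, at 0.51 in 1 spleen doxycycline library and at 0 in the other libraries of the series. Nearby genes moved less: Mpp2 by 0.81 ± 0.13 and Nags by 1.29 ± 0.16 in log2 units, both called higher. These genes were chosen after their values were seen.

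Cdh2 was not limited to the spleen controls. It measured 11.1, 10.4 and 10.1 TPM there and 10.03 TPM in secondary disease replicate 4, and at most 0.08 TPM in every other library. Lama5 measured 3.39, 4.46 and 5.04 TPM in spleen controls and 0.03, 0.03, 0.11 and 3.92 TPM in the secondary disease libraries, with 2.00, 0.20 and 0.13 TPM in spleen doxycycline. Id1 had 6.44, 5.67 and 5.15 TPM in spleen controls, 1.2, 0.46 and 0.27 TPM in marrow controls and 0, 0, 0.11 and 2.31 TPM in secondary disease.

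Genes lower in spleen with very small p, chosen after their values were seen, include the transporter gene Slc22a23, at 28.4, 23.2 and 24.5 CPM in marrow and 5.09, 4.47 and 5.60 in spleen (log2 change −2.32 ± 0.13, adjusted p = 3.42e-06), and the zinc-finger factor gene Casz1, at 17.3, 17.9 and 27.8 CPM in marrow and 3.96, 3.10 and 4.28 in spleen (log2 change −2.46 ± 0.21, adjusted p = 3.13e-05, with edgeR). All spleen libraries lay under all marrow libraries in both.

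Runs of at least 4 neighbouring tested genes called in the same direction were found in 8 places. A run of 5 lay on chromosome 13 (GRCm38, 41025008 to 41220405), where the germ cell kinase gene Mak, Gcm2, Sycp2l, Gm48510 and the fatty acid elongase gene Elovl2 were all called higher. Other runs held related genes, such as Oas1b, Oas1g and Oas1a on chromosome 5 (higher) and Ly6c2, Ly6a2 and Ly6g on chromosome 15 (lower), whose reads may be divided between copies. A run on chromosome 10 joined the neutrophil genes Prtn3 and Elane with Med16 and R3hdm4 (lower).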
